A study of Mus musculus with 8 samples.

Results

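Peroxiredoxin, thioredoxin, glutathione peroxidase, superoxide dismutase and selenoprotein genes were followed in mouse testis by Nanopore direct RNA sequencing. In this assay each read is 1 RNA molecule, and the length of its poly(A) tail is estimated from the ionic current. Members were all genes whose symbol in the deposited tail table began with gpx, prdx, txn or selen, or with sod and a digit. The rule found 35 transcripts of 27 genes among 2783 transcripts of 2243 symbols, and used no measured value. The table writes symbols in lower case, and txnrd3, gpx4, prdx1, prdx2 and sod1 were followed in most detail.

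Whole testes came from adult male mice that carried either Tent5c wt/wt or Tent5c dcat/dcat. TENT5C is a cytoplasmic poly(A) polymerase, and dcat is an allele in the germ line, on a C57BL/6 background, that encodes a catalytically dead form in every cell. Each genotype received vehicle or busulfan, an alkylating drug that depletes germ cells, as a single injection at 20 mg/kg, and testes were taken 4 weeks later. This gave 4 groups of 2 mice, wt and dcat under vehicle and wt and dcat under busulfan, and 8 libraries in all. Because the tissue was whole testis, fewer cells of a type and less RNA per cell could not be told apart. For tails, a change on each RNA and a change in which cells gave the reads could not be told apart either.

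Peroxiredoxins reduce hydrogen peroxide with a reactive cysteine and are themselves reduced by thioredoxin, which thioredoxin reductases recharge with NADPH. Glutathione peroxidases use glutathione in a similar way, and superoxide dismutases produce the peroxide that both systems remove. Selenoproteins carry selenocysteine, inserted where the ribosome meets an in-frame UGA codon that would otherwise end translation. In the testis the selenoprotein GPX4 is an antioxidant of developing germ cells and later a structural protein of the sperm mitochondrial capsule. TXNRD3, also called thioredoxin glutathione reductase, TXNDC2 and TXNDC8 are testis-enriched members of the thioredoxin system. Germ cells obtain selenium from selenoprotein P, a secreted carrier encoded by Selenop, through the receptor encoded by Lrp8 on Sertoli cells.

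The coding sequences show which members share this chemistry. Of the 33 member transcripts with a complete coding sequence in GENCODE vM21 (GRCm38), 13, from 11 genes, held an in-frame TGA before the stop codon, as did 18 of 2562 coding transcripts (0.703%) among all those deposited. Of the 5 others, 4 were mitochondrial, where this codon encodes tryptophan, and 1 was Sephs2, the selenophosphate synthetase. The windows below are coding strand, 5′ to 3′, with the TGA in capitals. They are shown because Gpx4, Txnrd3 and Selenov lie on the germ cell list and Gpx1 and Selenop on the somatic list, so the same codon is used on both sides.
Gpx4: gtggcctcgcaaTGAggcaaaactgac
Txnrd3: cagaaaggctgcTGAggctag
Selenov: tactgtggcctcTGAagctatggcctt
Gpx1: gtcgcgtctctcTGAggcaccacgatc
Selenop: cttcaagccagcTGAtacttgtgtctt
Selenow: tattgtggagctTGAggctataagccc
The codon is at chr10:80054737-80054739 (+) in exon 3 of 7 of Gpx4 and at chr6:89674789-89674791 (+) in exon 16 of 16 of Txnrd3, where it is followed by 1 sense codon and the stop. It is at chr7:28288486-28288488 (-) in exon 2 of 6 of Selenov, at chr9:108339451-108339453 (+) in exon 1 of 2 of Gpx1 and at chr7:15920464-15920466 (-) in exon 2 of 6 of Selenow. Selenop held 10 such codons and each other member listed here held 1. The first codon of Selenop is at chr15:3274848-3274850 (+) in exon 2 of 5.

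The thioredoxin active-site motif was found in frame in 10 of the 2562 coding transcripts (0.39%), of which 4 were members, from 3 genes. It is shown in capitals because Txn1 is on the list of most cells whereas Txndc2 and Txndc8 are on the germ cell list.
Txn1: gctacgtggTGTGGACCTTGCaaaatgatc
Txndc2: gccgcttggTGTGGCCCCTGCagaatgatg
Txndc8: gcaaagtggTGTGGCCCCTGCaaaacaatt
The motif is at chr4:57951821-57951832 (-) in exon 2 of 5 of Txn1, at chr17:65637741-65637752 (-) in exon 3 of 3 of the longer Txndc2 transcript and at chr4:58007099-58007110 (-) in exon 2 of 6 of Txndc8.

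Total depth ranged from 29574 reads in dcat vehicle replicate 1 to 129074 in dcat vehicle replicate 2, and members took 300 to 1500 reads, or 0.851% to 1.30% of a library. Late spermatid markers such as Prm1 and Tnp1 summed to 88828 to 110150 CPM (reads scaled to library size) after vehicle. After busulfan they summed to 8539 and 11774 in wt and to 19762 and 35584 in dcat. Leydig cell markers summed to at most 6323 after vehicle, and after busulfan to 39787 and 44990 in wt and to 24349 and 20455 in dcat. Sertoli markers summed to at most 2942 after vehicle and to between 13040 and 18445 after busulfan. Lhcgr of the Leydig list and Sox9 and Rhox5 of the Sertoli list had no transcript in the table after its read filter. Mitochondrially encoded reads were 4.38% to 6.08% after vehicle and 14.0% to 16.2% after busulfan. Their part in the results below was not tested.

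After busulfan the role lists differed in the direction of their members. The lists were chosen with earlier results of these data known, so the split by list is a description and not a test. In wt testes 9 member transcripts fell and 15 rose (edgeR quasi-likelihood test, adjusted p under 0.05), against 38.3% and 35.4% of all 2783 transcripts. In dcat testes 8 fell and 16 rose, against 31.4% and 31.3% of all. The median log2 fold change of the members was 0.84 in wt and 0.85 in dcat, and that of all transcripts was 0.09 and 0.14. All 8 transcripts of the germ cell list fell in wt and 7 of 8 in dcat. On the list of somatic or secreted members 5 of 6 rose in wt and 6 of 6 in dcat, and on the list of members made in most cells 10 of 20 rose and none fell in either genotype. Entry to the table, at least 10 reads in both replicates of some group, partly fixed these directions. Of the germ cell list only Gpx4 ENSMUST00000097227 and ENSMUST00000105372 met that rule in a busulfan group. No somatic or secreted transcript met it in a vehicle group. Of the transcripts made in most cells that rose, only Prdx1 and Sod1 ENSMUST00000023707 met it in a vehicle group. The others that rose could enter only through a busulfan group. DESeq2 called 21 of 35 in wt and 19 in dcat, and over all transcripts it split the dcat calls into 391 higher and 704 lower, in place of 871 and 875. Without dcat vehicle replicate 2, which leaves only the shallowest library as dcat control, the dcat count dropped from 24 to 13.

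**Figure D1:**
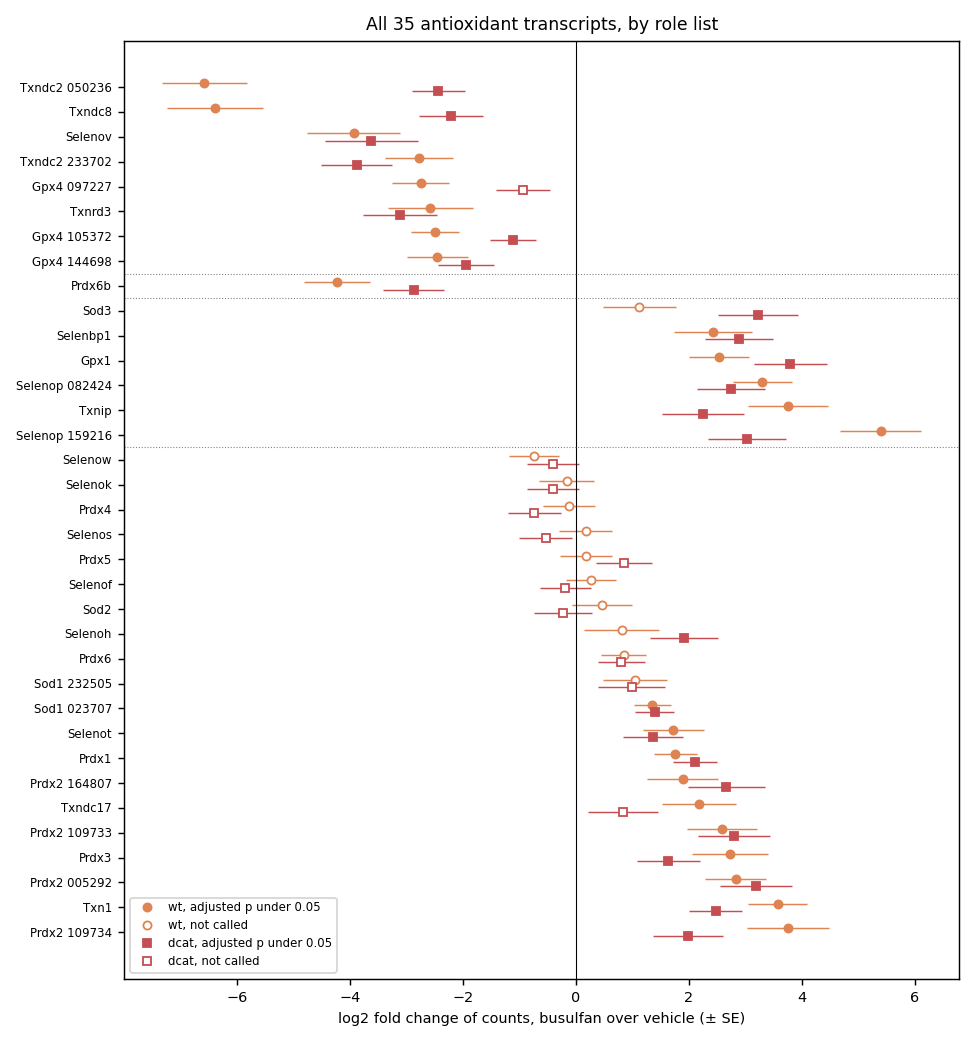
Log2 fold change of counts, busulfan over vehicle, with its SE for each of the 35 member transcripts in wt (circles) and dcat (squares); filled symbols have an adjusted p under 0.05, and dotted lines part the germ cell list, Prdx6b, the somatic or secreted list and the list of most cells. The germ cell list and Prdx6b lie left of 0 and the somatic list right of 0 in both genotypes.

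Txnrd3 encodes the reductase that acts on both thioredoxin and glutathione. Its single transcript had 6 and 15 reads (vehicle) and 1 and 4 (busulfan) in wt mice, and 11 and 42 followed by 0 and 6 in dcat mice. The busulfan libraries lay below the vehicle libraries in both genotypes once scaled for depth, at 26.5 ± 17.6 against 165 ± 69.0 CPM in wt (mean ± SD, n = 2). The log2 fold change was -2.58 ± 0.76 (SE) in wt (adjusted p = 0.00382) and -3.12 ± 0.65 in dcat (adjusted p = 4.80e-04). The wt call was lost without wt vehicle replicate 2.

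Gpx4, the phospholipid hydroperoxide peroxidase, was the most abundant member of the germ cell list. Somatic cells make it too, and which cells gave the reads left after busulfan was not tested. Summed over its 3 transcripts it had 115 and 137 reads under vehicle against 13 and 52 under busulfan in wt, and 65 and 209 against 38 and 81 in dcat. Scaled for depth, both busulfan libraries of each genotype were below both vehicle libraries, at 345 ± 229 against 2087 ± 192 CPM in wt and 716 ± 157 against 1880 ± 302 in dcat. By gene sum the log2 fold change was -2.54 in wt (adjusted p = 4.32e-06) and -1.36 in dcat (adjusted p = 0.00271). The 3 transcripts share their last exon, so which of them a read was given to is uncertain. The transcript with the most reads, ENSMUST00000105372, has a coding sequence of 594 bases, the mitochondrial form. It changed by -2.50 ± 0.42 in wt (adjusted p = 1.79e-05) and -1.11 ± 0.41 in dcat (adjusted p = 0.0207), and the dcat call was lost without dcat busulfan replicate 1. ENSMUST00000097227, with 762 coding bases from another first exon, is the nuclear form that spermatids make. It changed by -2.75 in wt (adjusted p = 4.29e-05) and by -0.94 in dcat, where it missed the threshold (adjusted p = 0.0860).

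Txndc2 and Txndc8 encode spermatid thioredoxins. Txndc2 summed to 47 and 74 reads (vehicle) and 3 and 6 (busulfan) in wt mice, and 44 and 138 followed by 8 and 18 in dcat mice, a log2 fold change of -4.21 in wt (adjusted p = 1.56e-07) and -2.94 in dcat (adjusted p = 9.61e-06). Its transcript ENSMUST00000050236 went from 26 and 58 reads to 0 and 1 in wt, a ratio of vehicle to busulfan of 126 (95% counting interval 22.0 to 5043), and from 23 and 89 to 6 and 15 in dcat (log2 fold change -2.44 ± 0.47, adjusted p = 2.54e-04). The other transcript, ENSMUST00000233702, shares 1516 bases of last exon with it and fell by 2.78 in wt and 3.89 in dcat on the log2 scale (adjusted p = 2.41e-04 and 6.01e-05). Txndc8 had 30 and 43 reads under vehicle against 1 and 0 under busulfan in wt, and 7 and 70 against 2 and 13 in dcat. Its ratio of vehicle to busulfan in wt was 110 (19.1 to 4390), and in dcat its log2 fold change was -2.21 ± 0.57 (adjusted p = 0.00221). Scaled for depth no busulfan library of either gene reached a vehicle library of its genotype.

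Selenov, a testis selenoprotein of uncertain function, had 13 and 10 reads in wt vehicle and 7 and 20 in dcat vehicle. After busulfan it had 0 and 2 reads in wt and again 0 and 2 in dcat. The ratios of vehicle to busulfan were 17.3 (4.27 to 151) in wt and 13.4 (3.37 to 116) in dcat, with adjusted p = 1.65e-04 and 9.28e-04. Prdx6b stands on no role list. It had 50 and 38 reads (vehicle) and 2 and 5 (busulfan) in wt mice, and 10 and 90 followed by 3 and 9 in dcat mice, and fell by 4.24 in wt and 2.88 in dcat on the log2 scale (adjusted p = 1.85e-06 and 2.33e-04). Its coding sequence is 92.9% identical to that of Prdx6, a peroxiredoxin with phospholipase activity. On that part alone reads could have been given to either copy, and the 3′ untranslated regions were not compared. Prdx6 itself missed the threshold, at 0.84 ± 0.40 and 0.80 ± 0.42 (adjusted p = 0.0632 in wt and 0.0992 in dcat), and passed in wt when reads were summed per gene over all genes (adjusted p = 0.0328).

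**Figure D2:**
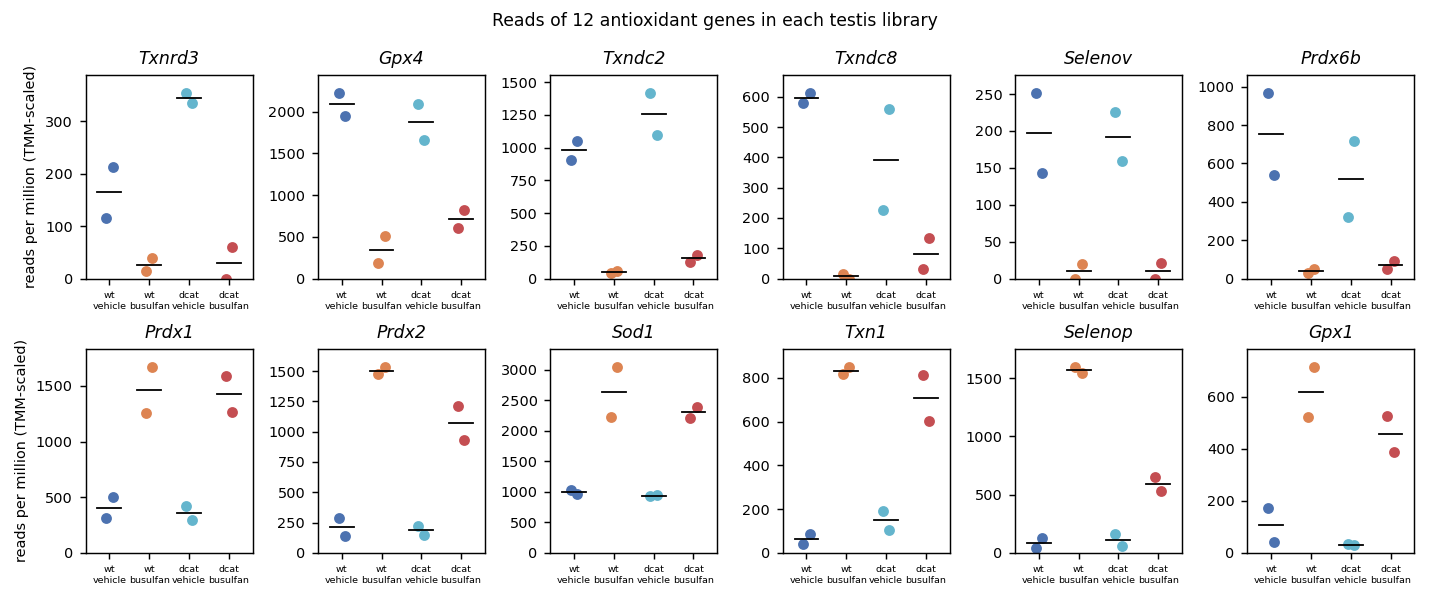
TMM-scaled CPM of 12 member genes, each summed over its transcripts, in the 8 libraries; dots are libraries, the black line is the mean of 2, and each vertical axis starts at 0. The upper row is the germ cell list with Prdx6b, where both busulfan libraries of a genotype lie below its vehicle libraries; the lower row holds 4 genes of most cells and 2 somatic genes, where they lie above.

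Selenop had the largest rise by gene sum on the list of somatic or secreted members in wt (4.11 ± 0.48, adjusted p = 2.37e-07). It summed to 2 and 9 reads under vehicle against 113 and 158 under busulfan in wt, and 5 and 7 against 41 and 52 in dcat. These were 83.4 ± 63.3 and 1566 ± 36.1 CPM in wt and 108 ± 74.4 and 592 ± 86.5 in dcat, with no overlap between treatments. By transcript, ENSMUST00000159216 went from 2 reads in all to 138 in wt, a ratio of 45.9 (12.5 to 383.0), and changed by 3.02 ± 0.70 in dcat (adjusted p = 0.00102), a call lost without dcat vehicle replicate 2. ENSMUST00000082424 changed by 3.29 and 2.74 (adjusted p = 8.33e-06 and 7.49e-04). Txnip, the inhibitor that binds thioredoxin, had 1 and 2 reads (vehicle) and 33 and 30 (busulfan) in wt mice, and 3 and 2 followed by 9 and 17 in dcat mice. Its ratio of busulfan to vehicle was 14.0 (4.57 to 69.6) in wt, and the rise also passed in dcat (adjusted p = 0.0110), where DESeq2 did not call it.

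Gpx1, the cytosolic glutathione peroxidase, had 9 and 3 reads under vehicle against 37 and 73 under busulfan in wt, and 1 and 4 against 33 and 38 in dcat, and rose by 2.53 ± 0.53 and 3.79 ± 0.65 (adjusted p = 1.88e-04 and 1.10e-04). Selenbp1, a selenium-binding methanethiol oxidase, rose by 2.42 and 2.88 (adjusted p = 0.00316 and 5.21e-04). Sod3, the secreted superoxide dismutase, rose in dcat, from 0 and 4 reads to 12 and 27 (3.22 ± 0.71, adjusted p = 7.16e-04). In wt it had 3 and 5 reads after vehicle and 6 and 21 after busulfan, and missed the threshold at 1.12 ± 0.65 (adjusted p = 0.122). The difference between the genotypes for Sod3 did not pass either (interaction 2.10 ± 1.06, adjusted p = 0.334).

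Of the 16 genes made in most cells, 8 had no transcript that passed the test in either genotype, and none had a transcript that fell. Of those 8, Prdx6 passed by gene sum in wt (0.92, adjusted p = 0.033). Prdx1, a cytosolic peroxiredoxin, had 16 and 35 reads (vehicle) and 89 and 171 (busulfan) in wt mice, and 13 and 37 followed by 100 and 124 in dcat mice. That was 404 ± 134 against 1460 ± 293 CPM in wt and 357 ± 87.4 against 1429 ± 231 in dcat, with log2 fold changes of 1.75 ± 0.38 and 2.10 ± 0.40 (adjusted p = 2.59e-04 and 2.33e-04). Sod1, the cytosolic copper and zinc superoxide dismutase, was the most abundant member with 1112 reads in all. It summed to 53 and 68 reads under vehicle against 158 and 312 under busulfan in wt, and 29 and 118 against 139 and 235 in dcat. Its main transcript, ENSMUST00000023707, rose by 1.35 ± 0.33 in wt and 1.39 ± 0.34 in dcat (adjusted p = 8.99e-04 and 0.00152). The retained-intron transcript ENSMUST00000232505 did not pass the test, at 1.04 and 0.99 (adjusted p = 0.100 and 0.148).

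Prdx2, a second cytosolic peroxiredoxin and a main one of red blood cells, summed to 15 and 10 reads (vehicle) and 105 and 157 (busulfan) in wt mice, and 7 and 19 followed by 76 and 91 in dcat mice. Both busulfan libraries were above both vehicle libraries in each genotype, at 1505 ± 36.7 against 216 ± 104 CPM in wt and 1070 ± 199 against 189 ± 52.3 in dcat. Its main transcript, ENSMUST00000005292, rose by 2.82 ± 0.55 in wt and 3.19 ± 0.64 in dcat (adjusted p = 7.48e-05 and 3.62e-04). The other 3 transcripts share 661 to 835 bases of last exon with it or each other and rose as well, by 1.88 to 3.75 in wt and 1.97 to 2.79 in dcat. Among them ENSMUST00000109734 went from 3 reads in all to 65 in wt, a ratio of 14.4 (4.72 to 71.7). Erythroid markers Hba-a2 and Hbb-bs summed to 177 and 291 CPM under vehicle against 924 and 771 under busulfan in wt, and to 135 and 15.5 against 0 and 20.7 in dcat. Their part in the Prdx2 reads was not tested. The Prdx2 gene sum rose by 2.84 in wt and 2.61 in dcat (adjusted p = 2.24e-06 and 4.81e-05).

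Txn1, the cytosolic thioredoxin, went from 2 and 6 reads to 58 and 87 in wt and from 6 and 13 to 51 and 59 in dcat, log2 fold changes of 3.57 ± 0.52 and 2.47 ± 0.47 (adjusted p = 3.24e-06 and 2.51e-04). Prdx3, the mitochondrial peroxiredoxin, rose by 2.72 and 1.63 (adjusted p = 9.17e-04 and 0.0146). Selenot, a thioredoxin-like selenoprotein of the endoplasmic reticulum, rose by 1.72 and 1.37 (adjusted p = 0.00603 and 0.0276). Txndc17 passed only in wt (2.18, adjusted p = 0.00486, against 0.83, adjusted p = 0.240, in dcat) and Selenoh only in dcat (1.91, adjusted p = 0.00944, against 0.81, adjusted p = 0.271, in wt), and neither difference between genotypes passed the interaction test. Prdx4 and Prdx5, Sod2, Selenof, Selenok, Selenos and Selenow passed in neither genotype, with log2 fold changes from -0.75 to 0.85. Of the 5 members of the endoplasmic reticulum (Prdx4, Selenof, Selenok, Selenos and Selenot), Selenot was the one called. Selenot met the read rule for entry to the table only in busulfan groups. Prdx4, Selenof, Selenok and Selenos met it in a vehicle group as well, so the entry rule partly fixed this contrast. Of all transcripts 35.4% rose in wt and 31.3% in dcat, and the endoplasmic reticulum grouping was not among the planned lists.

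Partners of these systems were read from a list of 40 genes for glutathione, thiol, iron and selenium handling, of which 13 genes with 18 transcripts were measured. In wt 10 of the 18 rose and 5 fell, against 35.4% and 38.3% of all transcripts, and in dcat 9 rose and 4 fell, against 31.3% and 31.4%. Transcripts of both ferritin genes rose. Fth1 ENSMUST00000237316 went from 3 reads to 34 in wt (ratio 7.54, 2.37 to 38.4). In dcat that transcript overlapped between treatments and did not pass (1.03 ± 0.68, edgeR adjusted p = 0.184). Fth1 ENSMUST00000025563 rose by 2.42 ± 0.34 and Ftl1 ENSMUST00000094434 by 3.29 ± 0.45 in dcat (adjusted p = 1.69e-05 for each). Nfe2l2, which encodes the transcription factor NRF2 that drives many antioxidant genes, went from 0 to 44 reads in wt, at least 9.76-fold higher against a floor of 3 reads over the group, and from 3 to 20 in dcat (ratio 6.71, 1.99 to 35.3). Lrp8, the receptor for selenoprotein P, went from 0 to 30 reads in wt (at least 6.66-fold higher) and from 2 to 19 in dcat (ratio 9.56, 2.31 to 84.7). Nfe2l2, Lrp8 and Fth1 ENSMUST00000237316 had too few reads under vehicle to enter the table there, so they could enter only through a busulfan group. Sephs2, which makes the selenium donor and is itself a selenoprotein, fell by 2.33 ± 0.67 in wt (adjusted p = 0.00314) and fell in dcat too (adjusted p = 0.00406). Hmox2, a heme oxygenase, fell by 2.92 ± 0.48 in wt (ENSMUST00000004172, adjusted p = 1.23e-05) and by 1.99 ± 0.59 in dcat (ENSMUST00000120232, adjusted p = 0.00579). Glrx2, a glutaredoxin, went from 24 reads to 2 in wt (95% counting interval of the ratio 4.48 to 157).

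The genotype comparison after vehicle asked whether the catalytically dead polymerase altered these RNAs in an intact testis. None of the 35 member transcripts differed (edgeR), nor did any of the 2783 (0%). At an unadjusted p under 0.05 there were 0 members and 65 transcripts in all, and DESeq2 called 0. The log2 differences of members, dcat over wt, ran from -1.60 for Gpx1 (12 reads in wt, 5 in dcat) to 1.32 for Prdx2 ENSMUST00000109734 (3 and 10). Txnrd3 had 165 ± 69.0 CPM in wt and 345 ± 13.7 in dcat without overlap, a log2 difference of 1.01 ± 0.52 that did not pass (unadjusted p = 0.0645, edgeR).

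After busulfan 2 of 35 members (5.71%) differed between the genotypes, a share near the 5.82% of all transcripts. These were Txndc2 and Txndc8, both higher in dcat. Txndc2 ENSMUST00000050236 had 0 and 1 reads in wt and 6 and 15 in dcat, a ratio of 24.9 (4.00 to 1028, adjusted p = 0.0111). Txndc8 had 1 and 0 reads in wt and 2 and 13 in dcat, a ratio of 17.8 (2.73 to 747, adjusted p = 0.0472). Both calls were lost with DESeq2 (adjusted p = 0.0569 and 0.133) and without either wt busulfan library or without dcat busulfan replicate 2, and by gene sum Txndc2 differed by 1.60 (adjusted p = 0.0878). The late spermatid markers differed the same way, at 8539 and 11774 CPM in wt against 19762 and 35584 in dcat, and their part in the difference was not tested. The other Txndc2 transcript did not differ so (-0.41 ± 0.86, adjusted p = 0.879). The 3 Gpx4 transcripts were also higher in dcat, by 0.98 to 1.26, and did not pass (adjusted p = 0.160 to 0.403).

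Selenop was lower in dcat after busulfan, with 1566 ± 36.1 CPM in wt and 592 ± 86.5 in dcat and no overlap. Its transcripts differed by -1.21 ± 0.41 and -1.36 ± 0.44 and missed the threshold (adjusted p = 0.0729 and 0.0607). The gene sum passed it (-1.41 ± 0.36, adjusted p = 0.0217), as did both transcripts with RLE scaling (adjusted p = 0.0331 and 0.0272). Leydig cell markers were lower in the same libraries, at 24349 and 20455 CPM in dcat against 39787 and 44990 in wt. Their sum includes Insl3, whose RNA the authors reported as lower in dcat testes after busulfan. Sertoli markers summed to 17647 and 13040 CPM in dcat against 18258 and 18445 in wt. The part of these markers in the Selenop difference was not tested. All 20 transcripts made in most cells stayed within -0.63 to 0.76, and none was called.

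For the interaction of genotype and busulfan 0 member transcripts were called, against 0.323% of all. At an unadjusted p under 0.05 there were 4 members and DESeq2 called 0. Txndc2 ENSMUST00000050236 (4.14 ± 1.05, adjusted p = 0.0507) and Txndc8 (4.18 ± 1.21, adjusted p = 0.0629) came closest. With the sequencing library as a replicate block both passed (adjusted p = 0.0197 and 0.0253). The busulfan comparisons of wt and dcat above are for that reason given side by side and were not shown to differ for other members.

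Poly(A) tails could be compared for fewer members, since a transcript needed at least 10 reads in each library of a comparison. No transcript of the germ cell list could be tested in wt after busulfan because too few reads were left. The mean tail over all reads was 139 and 141 nt under vehicle against 112 and 115 under busulfan in wt, and 134 and 144 against 111 and 115 in dcat. In vehicle testes the reads of the germ cell list had mean tails of 144 to 153 nt, and those of the most-cells list 133 to 143 nt. Within the germ cell list tails were pooled over the transcripts of a gene. Their mean in vehicle libraries was 174 to 189 nt for Txndc8, 160 to 173 nt for Txndc2 and 126 to 144 nt for Gpx4. These pooled means did not overlap between Gpx4 and the thioredoxins. By transcript, Gpx4 ENSMUST00000097227 (152 nt) lay above Txndc2 ENSMUST00000050236 (149 nt) in dcat vehicle replicate 1. Selenov, at 131 to 166 nt, overlapped both Gpx4 and Txndc2, and Txnrd3 had 104 to 143 nt. Both rested on few reads, with 7 to 20 for Selenov and 6 to 42 for Txnrd3 in a vehicle library.

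After busulfan in wt, 2 of 7 testable member tails were shorter, against 39.1% of 527 transcripts (limma, adjusted p under 0.05, uncentred nt scale). None was longer, against 0.569%. In dcat 2 of 8 were shorter, against 19.5% of 441 transcripts. In wt the members had a median difference of -17.3 nt and all transcripts tested one of -19.9 nt, and in dcat these were -23.9 and -17.2 nt. The 2 members, Sod1 and Selenow, were called in both genotypes.

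Sod1 had mean tails of 147 and 146 nt (vehicle) and 92.4 and 98.4 (busulfan) in wt mice, and 132 and 140.5 followed by 105 and 95.1 in dcat mice for its main transcript. Vehicle and busulfan libraries did not overlap in either genotype. The difference was -51.5 ± 5.55 nt (SE) in wt (adjusted p = 4.90e-05) and -36.2 ± 7.98 nt in dcat (adjusted p = 0.0150). The dcat call was lost without dcat busulfan replicate 2 and with both Sod1 transcripts pooled (-28.9 nt, adjusted p = 0.0582). The share of Sod1 reads with tails of 30 to 120 nt was 35.8% (95% Wilson interval 24.3 to 49.3) and 27.9% (18.7 to 39.6) in wt vehicle, and 67.1% (59.4 to 73.9) and 63.8% (58.3 to 68.9) in wt busulfan. In dcat it was 48.3% (31.4 to 65.6) and 37.3% (29.1 to 46.3) after vehicle, and 57.6% (49.2 to 65.5) and 63.0% (56.6 to 68.9) after busulfan. These intervals cover counting error only, and that of dcat vehicle replicate 1, with 29 reads, overlaps those of both dcat busulfan libraries. On the uncentred scale Sod1 thus had more reads and shorter mean tails after busulfan. Neither tail call held with libraries centred on their medians (adjusted p = 0.721 in wt and 0.398 in dcat, limma).

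**Figure D3:**
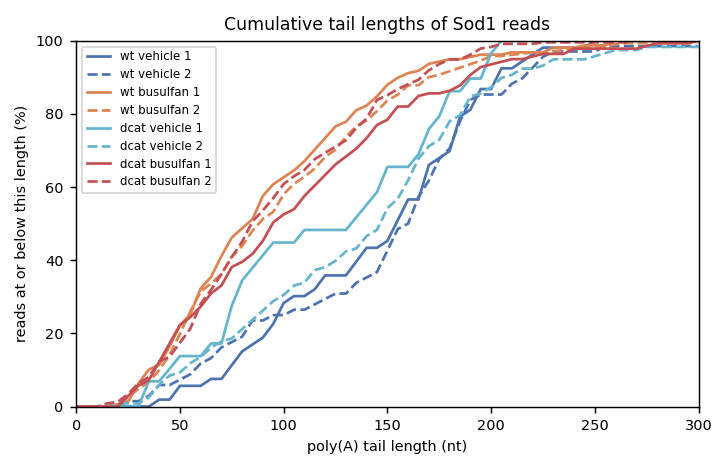
Cumulative percentage of Sod1 reads (both transcripts) against poly(A) tail length in nt, 1 line per library, solid for replicate 1 and dashed for replicate 2. The 4 busulfan lines lie to the left of the vehicle lines over tails of about 60 to 160 nt, and dcat vehicle replicate 1, with 29 reads, lies between.

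Selenow encodes a small cytosolic selenoprotein with a thioredoxin-like fold, and its count passed no test. Its tails averaged 145 and 175 nt under vehicle against 111 and 121 under busulfan in wt, and 172 and 147 against 105 and 117 in dcat, on 12 to 40 reads a library. Busulfan libraries were below vehicle libraries in both genotypes. The difference was -44.0 ± 12.5 nt in wt (adjusted p = 0.0161) and -48.8 ± 13.7 nt in dcat (adjusted p = 0.0331). The wt call was lost without wt vehicle replicate 2, and the dcat call without dcat vehicle replicate 1 or dcat busulfan replicate 1.

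Prdx1 tails passed no test in the uncentred fits that kept every library of a comparison. They averaged 127 and 139 nt (vehicle) and 122 and 119 (busulfan) in wt mice, and 96.3 and 147 followed by 126 and 132 in dcat mice. The difference was -11.8 ± 7.20 nt in wt (adjusted p = 0.217). In dcat it was 7.04 ± 15.0 nt (adjusted p = 0.742), where the vehicle library with the shorter tails rested on 13 reads. Without that library the dcat difference was -18.4 nt, and without the other it was 32.5 nt (adjusted p = 0.0104). Prdx4, the peroxiredoxin of the endoplasmic reticulum, had longer mean tails after busulfan in dcat, by 24.8 ± 12.2 nt, and did not pass (adjusted p = 0.171).

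Gpx4 was the only gene of the germ cell list with tails testable in dcat after busulfan. Its 2 transcripts with enough reads differed by -27.3 ± 11.6 and -35.5 ± 13.0 nt and missed the threshold (adjusted p = 0.118 and 0.0813). The second passed with the replicate block (adjusted p = 0.0487), and the gene pooled over its transcripts was lower, at -28.5 ± 8.07 nt (adjusted p = 0.0486). Pooled Gpx4 tails were 126 and 135 nt under vehicle against 120 and 114 under busulfan in wt, and 144 and 135 against 109 and 113 in dcat, so that neither genotype's treatments overlapped. In wt the pooled difference was -13.4 ± 6.95 nt (adjusted p = 0.141). Prdx2, pooled over 4 transcripts, had tails of 130 and 126 nt in wt vehicle and 124 and 145 nt in wt busulfan, which overlapped (5.86 ± 8.12 nt, adjusted p = 0.609). Among the partners, 1 of 5 testable tails shortened in wt, that of Glrx3, a glutaredoxin of iron handling (-31.1 nt, adjusted p = 0.0412), against 39.1% of all transcripts tested. In dcat it was 0 of 5, against 19.5%.

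**Figure D4:**
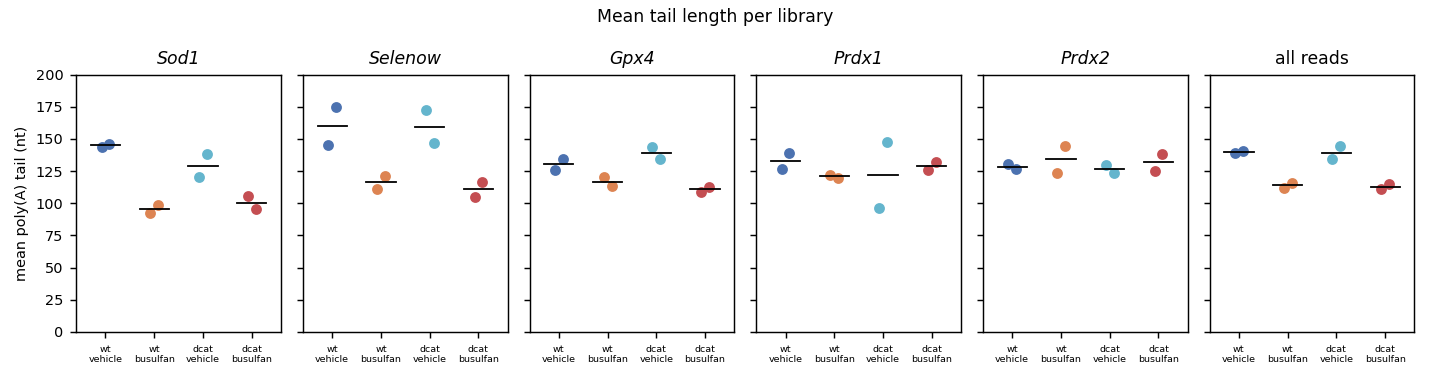
Mean poly(A) tail in nt per library for 5 member genes, reads pooled over transcripts, and for all reads of the library; dots are libraries and the black line is the mean of 2. Sod1 and Selenow lie lower after busulfan in both genotypes, as do all reads, whereas Prdx2 overlaps.

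The tail results depended on the reference chosen. The median tail of all reads went from 147 nt in both libraries to 95.8 and 99.5 nt for wt, and for dcat from 138 and 152 nt to 94.3 and 103 nt. With each library centred on its median, neither Sod1 (-2.15 nt in wt, 9.91 nt in dcat) nor Selenow was called. Prdx1 was then longer after busulfan, by 37.5 nt for wt and 53.1 nt for dcat (adjusted p = 0.00107 and 5.58e-04). In wt Prdx5, Prdx6 and Selenof were then longer too, by 36.0, 32.6 and 32.0 nt (limma, adjusted p = 0.0298, 0.0197 and 0.0222). All transcripts tested in wt then gave 331 longer and 17 shorter, in place of 3 and 206. With each library centred on its mean, chosen after seeing the data, Sod1 was still shorter in wt, by 25.5 nt (adjusted p = 0.00565), and Selenow was not called. In dcat neither was called with mean centring, at -9.49 nt for Sod1 (adjusted p = 0.481) and -22.1 nt for Selenow (adjusted p = 0.295). Nor were Gpx4 ENSMUST00000105372 (-0.56 nt, adjusted p = 0.982) and ENSMUST00000097227 (-8.78 nt, adjusted p = 0.695) in dcat. The calls there turned to 2 longer members, Prdx1 by 33.8 nt and Prdx4 by 51.5 nt (adjusted p = 0.0171 and 0.00967), and median centring gave 3, these 2 and Selenok. Over all transcripts in dcat, median and mean centring gave 232 and 54 longer and 2 and 19 shorter, in place of 0 and 86.

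The dead polymerase changed no member tail past the threshold. After vehicle 0 of 10 testable members differed, against 0.139% of 720 transcripts, with differences from -11.0 nt for Prdx1 to 16.9 nt for Gpx4 ENSMUST00000097227. After busulfan 0 of 22 differed, against 1.35% of 1188, and 1 member had an unadjusted p under 0.05, Selenbp1, with 142 ± 16.3 nt for wt and 111 ± 2.01 nt for dcat (adjusted p = 0.560). Selenop tails were longer in dcat without overlap, at 110 ± 4.68 against 127 ± 10.5 nt and 107 ± 0.93 against 124 ± 6.35 nt for its 2 transcripts, and did not pass (adjusted p = 0.687 and 0.711). Sod1 differed by -10.8 ± 8.55 nt after vehicle and 4.51 ± 4.87 nt after busulfan. For the interaction 0 of 4 members were called, against 0.885% of 339, with 0 members under an unadjusted p of 0.05. At 2 mice a group the SE of a member's tail difference was 4.87 to 17.6 nt after busulfan, and differences of up to 31.2 nt (Selenbp1, SE 13.7 nt) did not pass.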

How the data were processed

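The authors basecalled direct RNA reads with Guppy, aligned them with Minimap2 to GENCODE transcripts of GRCm38, demultiplexed them with Deeplexicon and measured tails with Nanopolish. They deposited raw read counts per transcript, unnormalized, and the tail length of each read in nt. Only transcripts with at least 10 reads in both replicates of a condition were kept. Deposited tables of the authors' own DESeq2 comparisons were not used.

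Here counts were compared with edgeR 4.0.16 (quasi-likelihood test, TMM scaling, all 8 libraries as 4 groups, no replicate block), and mean tails per transcript and library with limma 3.58.1 (moderated with a trend on read number, at least 10 reads in each library). P-values were adjusted by the Benjamini-Hochberg method over all transcripts tested, with 0.05 as threshold. Log2 fold changes are busulfan over vehicle or dcat over wt, and the CPM of a gene is TMM-scaled, that of a marker sum is scaled to the library total. Ratios from pooled reads of genes with 1 to 3 reads in a group carry an exact 95% counting interval, and 0 reads were set to a floor of 3 reads over the group. The fits were tested on simulated data. Annotation and sequences came from GENCODE vM21 (GRCm38), which held all 35 members. DESeq2 1.42.0 was an alternative.

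Named genes were Txnrd3, Gpx4, Prdx1, Prdx2 and Sod1, by gene sum and by their most-read transcript, and up to 4 member transcripts (3 for partners) per direction, comparison and measure with the largest change past the threshold and no overlap. The members and all lists were chosen with earlier results of these data known. Per the authors' methods each replicate number is 1 of 2 multiplexed libraries that held 1 mouse of each group, so the numbers pair the samples, and p-values rest on 2 mice a group. Same-numbered samples deviated together with correlations of -0.11 to 0.19 for counts and 0.006 to 0.062 for tails. Direct RNA reads keep their strand.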

Additional observations from a re-analysis of the deposited data

How the results depend on the processing

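With the replicate block, the calls numbered 24 in wt and 24 in dcat for counts and 2 and 3 for tails. Counts of called members after busulfan were within 1.5 times the main count with DESeq2, RLE scaling, edgeR's filterByExpr, the replicate block and gene sums, and no member changed direction in wt or dcat with RLE scaling. RLE moved the median of all transcripts from 0.09 to -0.03 in wt, from 0.14 to -0.08 in dcat and from 0.20 to 0.06 for dcat against wt after busulfan. For that last comparison the 2 calls became 0 with DESeq2, 4 with filterByExpr (Txndc2, Txndc8 and both Selenop transcripts), 3 with RLE (Txndc2 and both Selenop) and 1 by gene sum (Selenop). For the interaction the 0 calls became 1 with RLE and 1 with filterByExpr (Txndc2), and 2 with the replicate block. Without dcat busulfan replicate 1, dcat against wt after busulfan had 4 calls, with Selenop ENSMUST00000082424 and Gpx4 ENSMUST00000097227 added. Without dcat vehicle replicate 2 the interaction had 2 (Txndc2 and Txndc8). The 3 interaction calls without dcat busulfan replicate 1 were Txndc2, Txndc8 and Gpx4 ENSMUST00000097227. Leaving out 1 library at a time gave 22 to 25 count calls in wt, 13 to 25 in dcat, 0 in the genotype comparison after vehicle, 0 to 4 after busulfan and 0 to 3 for the interaction.

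Tail calls after busulfan became 1 in wt and 1 in dcat with at least 20 reads, and 0 in dcat without the trend. Centring on library medians gave 4 in wt, all longer. Centring on library means (chosen after seeing the data) gave 1 in wt, shorter. Single libraries left out gave 1 to 2 in wt and 1 to 3 in dcat. Median centring turned the sign of 6 of 7 member differences in wt and 5 of 8 in dcat, among them Prdx1 in wt (37.5 nt), Selenow in wt (5.36 nt), Gpx4 ENSMUST00000105372 in dcat (18.8 nt) and Sod1 in dcat (9.91 nt), and gave 3 dcat calls, all longer. Mean centring turned 4 of 7 in wt, among them Prdx1 (14.1 nt), and 2 of 8 in dcat, with 2 dcat calls, both longer. Prdx1 in dcat ranged from -18.4 to 32.5 nt over single libraries left out. The replicate block changed no other call than those given for Txndc2, Txndc8 and Gpx4. The genotype comparisons gave 0 tail calls under each alternative run. Depth limits Selenoh, Selenov, Txndc17, Sod3 and Txnrd3 most, with 51 to 85 reads over the 8 libraries.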
